A study of Mus musculus with 2 samples.

Results

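The 52 genes described here drive or mark the cell cycle and DNA replication. They were taken as a named list, and each was read through the deposited peaks that lie over its mm10 gene model or within 1 kb of it, out of 21887 protein-coding genes read in the same way. The data are from chromatin immunoprecipitation followed by sequencing (ChIP-seq) of trimethylated lysine 4 of histone H3 (H3K4me3), a mark of active and poised promoters. Chromatin came from neurons of the mouse small intestine sorted for NOS1, the neuronal nitric oxide synthase that marks the neurons that relax gut muscle. There was 1 immunoprecipitated library and 1 input chromatin library, with no replicate and no treatment. The sources used here do not give the strain, the age, the number of animals or how NOS1+ cells were marked for sorting. The processed file of the immunoprecipitate holds 29924 peaks, each with a position and a score. With 1 library no difference below was tested, and read depth is unknown, so a peak that was not called may still be present at a greater depth.

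In a dividing cell, mitogens raise D-type cyclins, which with CDK4 and CDK6 phosphorylate the retinoblastoma protein RB1 and release E2F factors, unless CDK inhibitors hold them back. E2F factors then switch on the genes of S phase, origins already loaded with MCM helicases fire, and later cyclin B with CDK1 drives mitosis. In cells that have left the cycle, the DREAM complex and RB1 hold E2F target genes and mitotic genes down through E2F sites and through a short promoter element called CHR, often beside CCAAT boxes. Mature neurons are post-mitotic, while several G1 regulators, among them the CDK inhibitors, remain in use in neurons.

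Promoter sequences show which letters of these elements lie around the members' starts. These stretches need not lie under a peak: the printed one of Cdk1 lies wholly between its peaks. RefSeq windows on GRCm38.p6, the assembly behind mm10, were found for 42 of the 52 members. Not listed were Ccnd1, Ccnd2, Rb1, Ccne2, Foxm1, Mcm4, Gmnn, Ccna2, Cdc25c and Aurkb. The stretches below are the 200 bases before the start, 5′ to 3′ on the strand of the gene, and were chosen because they show a mitotic kinase, a mitotic cyclin, a mitotic activator, a helicase gene and a CDK inhibitor side by side. Capitals mark the searched letters: TTTGAA or TTCGAA for CHR, CCAAT, and TTTGGCGC, TTTCCCGC, TTTCGCGC or TTTGCCGC for E2F, each on both strands.
Cdk1: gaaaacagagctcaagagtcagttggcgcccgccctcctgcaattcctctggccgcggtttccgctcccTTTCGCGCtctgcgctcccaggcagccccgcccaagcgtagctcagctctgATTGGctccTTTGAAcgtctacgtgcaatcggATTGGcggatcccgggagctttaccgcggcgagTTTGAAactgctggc
Ccnb2: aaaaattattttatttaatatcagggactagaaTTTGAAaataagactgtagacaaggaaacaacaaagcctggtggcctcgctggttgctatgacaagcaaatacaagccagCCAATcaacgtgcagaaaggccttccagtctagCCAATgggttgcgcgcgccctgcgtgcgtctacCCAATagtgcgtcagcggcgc
Cdc20: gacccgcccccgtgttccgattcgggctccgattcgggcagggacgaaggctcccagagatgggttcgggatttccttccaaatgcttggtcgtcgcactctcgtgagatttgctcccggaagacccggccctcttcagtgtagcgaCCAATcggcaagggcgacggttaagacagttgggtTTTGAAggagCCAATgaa
Mcm6: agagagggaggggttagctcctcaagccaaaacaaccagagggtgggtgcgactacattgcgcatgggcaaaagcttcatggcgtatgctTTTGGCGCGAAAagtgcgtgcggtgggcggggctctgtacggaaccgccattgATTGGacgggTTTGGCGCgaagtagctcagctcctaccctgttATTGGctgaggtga
Cdkn2c: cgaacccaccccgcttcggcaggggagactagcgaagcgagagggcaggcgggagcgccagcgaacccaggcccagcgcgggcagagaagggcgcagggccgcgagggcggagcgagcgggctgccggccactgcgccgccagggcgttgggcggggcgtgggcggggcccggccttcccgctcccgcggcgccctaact

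These stretches lie on mm10 at chr10:69352913-69353112 (minus strand) for Cdk1, chr9:70421555-70421754 (minus) for Ccnb2, chr4:118437344-118437543 (minus) for Cdc20, chr1:128359706-128359905 (minus) for Mcm6 and chr4:109666757-109666956 (minus) for Cdkn2c. All end just before the first base of the gene model. Cdk1 holds letters of all 3 kinds, Ccnb2 and Cdc20 hold CHR and CCAAT letters, Mcm6 holds E2F and CCAAT letters, and the Cdkn2c stretch holds none.

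Over the full window of 300 bases (250 before the start and 50 from it on), CHR letters stood in 17 of 42 members (40.5%), against 18.2% of 17492 protein-coding genes with a listed start. All 17 also held CCAAT, a combination found in 7.43% of all genes. CCAAT alone was in 29 members (69.0%, against 39.0%), and E2F letters in 13 (31.0%, against 2.92%). In the 7221 genes with a CpG-rich start these shares were 9.49% for CHR, 36.2% for CCAAT and 5.12% for E2F. CHR letters lay mostly in mitotic genes: Ccnb2, Cdk1, Cdc25b, Plk1, Aurka, Mki67, Top2a, Bub1, Bub1b, Cdc20, Hjurp and Cenpa, with Mcm2, Mcm7, Cdc45, E2f3 and E2f8 beside them. E2F letters lay mostly in genes of S phase and its control: Mcm3, Mcm5, Mcm6, Mcm7, Cdc6, Cdt1, Cdk2, Cdc25a, E2f2, E2f3 and E2f7, with Cdkn2a and Cdk1. In the members' windows 3 pairs of matches share a base, 1 of them between different kinds of element. A match describes letters and does not show that a factor binds there.

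All 52 members carried an H3K4me3 peak over the gene model, where the background share was 67.0% of protein-coding genes. There were 108 member peaks in all, and 35 members had more than 1, against 53.3% of genes with a peak. Genes of mitosis that mark dividing cells, such as Mki67, Top2a, Cdk1, Ccnb1 and Aurkb, were therefore among the marked promoters of this sort. The widest peak per member had a median of 1255.5 bp, against 1515 bp for the 14665 protein-coding genes with a peak. The highest score per member had a median of 128.0, against 152.6. The score is the authors' own value per peak, the sources used here do not give its scale, and it only ranks peaks within this list.

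At the start itself, 41 of 42 members had a peak within 1 kb, against 61.8% of 17492 genes. Here the first start listed for each gene was used. The exception was Cdkn1a, which had its peak at its second start. CpG content moves with this count. Of the members' starts 31 were CpG-rich (CpG observed over expected of at least 0.6 and at least 55% G+C), and all 31 had a peak, against 97.1% of all CpG-rich starts, so at these the members' share lies near the background. The other 11 members were Mcm3, Bub1b, E2f2, Tyms, Cenpa, Rrm1, Ccnb2, Top2a, Cdc45, Cdkn1a and Ccnd3. Of these 10 had a peak, against 36.9% of 10271 other starts. That share is not matched for CpG content. Bub1b, E2f2, Ccnb2, Top2a and Cdc45 had observed-over-expected values of 0.804 to 0.981, where 97.4% to 97.8% of all genes had a peak. Mcm3 and Tyms lay between 0.4 and 0.5, where 61.0% had one. Cenpa, Rrm1 and Ccnd3 lay between 0.5 and 0.6, where 81.4% had one. Over all genes the share with a peak rose with CpG content, being 3.87% below an observed-over-expected value of 0.1 and 97.8% between 0.9 and 1.0. Only Cdkn1a, with 0.089, stood below 0.4 among the members.

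**Figure D1:**
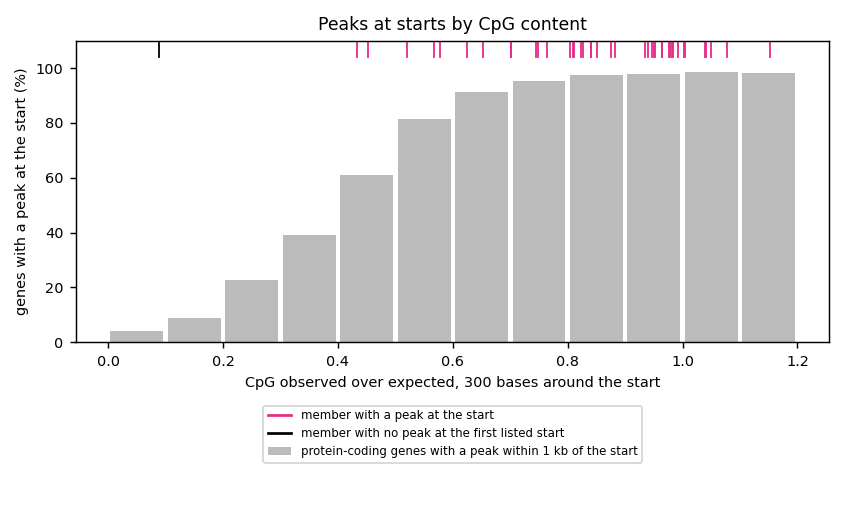
Grey bars give the percent of protein-coding genes with a peak within 1 kb of the first listed start (y axis) by CpG observed over expected in the 300 bases around it (x axis), and the ticks on top mark 42 members. Most members stand above 0.6, where 91.3% to 98.5% of genes in a bar have a peak, and the member with no peak at its first start is Cdkn1a at 0.089.

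Width differed between the roles. The 10 genes of the G1 switch, meaning D-type cyclins with their kinases, CDK inhibitors and Rb1, had a median width of 2992 bp, and 8 of the 10 had a peak over 2 kb. The 42 others had a median of 1076 bp, and 4 of the 42 had a peak over 2 kb, among genes with a peak a background of 26.1%. Peaks under 1 kb were found in 0 of the 10 and 19 of the 42, with a background of 21.9%. Median scores were 152.9 and 120.4, so the scores of the sets lay closer than their widths. With peaks closer than 1 kb merged, the medians were 3565.5 bp and 1644.5 bp, and over all members 1794 bp against 1816 bp for all genes with a peak, so after merging the members' median lay near that of all genes while the G1 regulators stayed wider. The limits of 1 kb and 2 kb and this division were chosen after the values were seen.

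**Figure D2:**
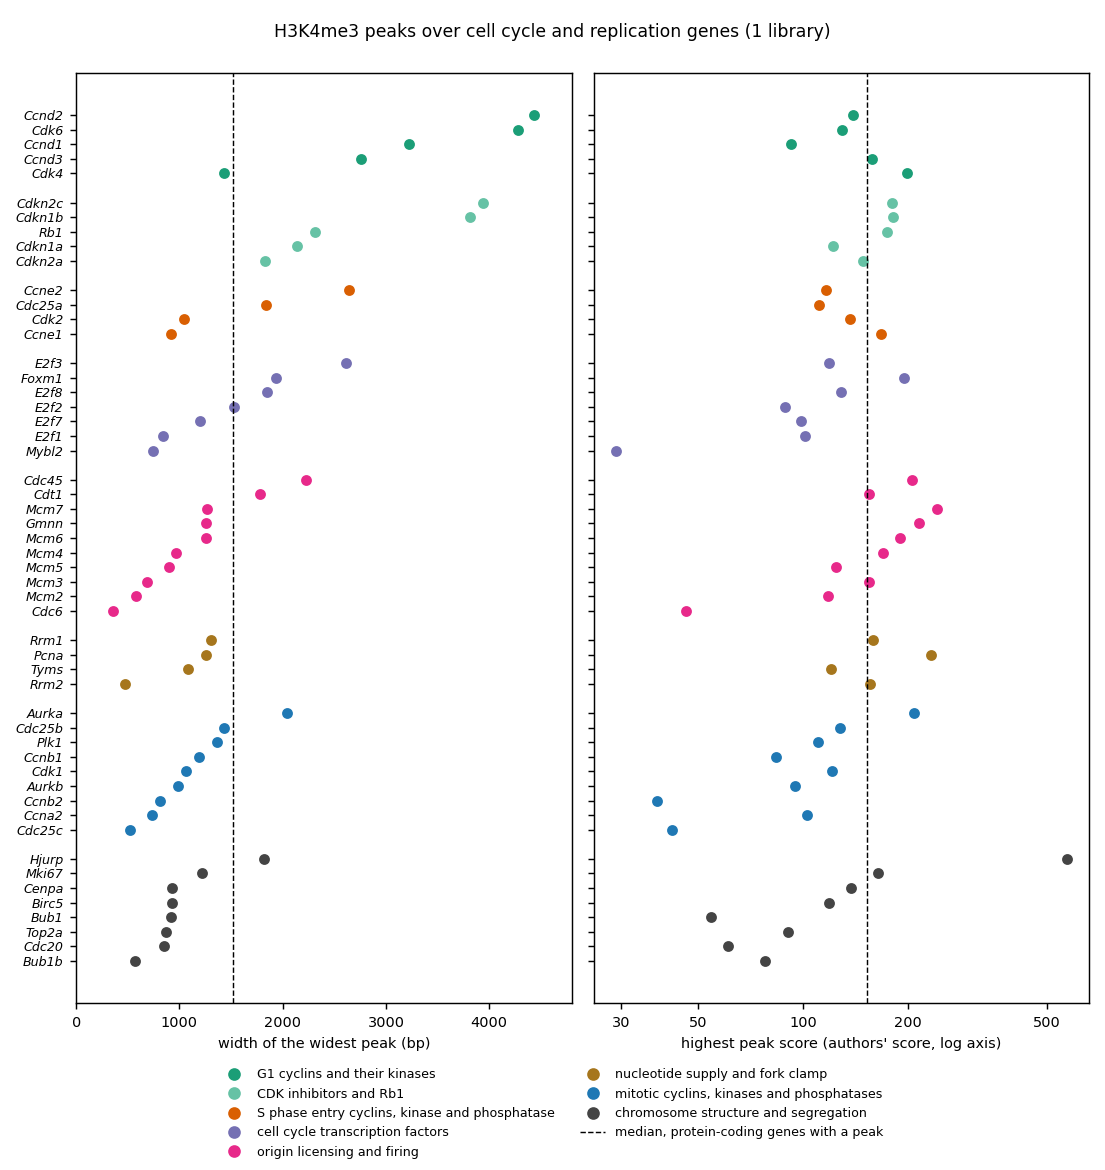
Each point is 1 member, by role, with the width of its widest peak in bp on the left and its highest score (log axis) on the right; dashed lines are the medians of protein-coding genes with a peak, 1515 bp and 152.6. The D-type cyclins, Cdk6 and the CDK inhibitors lie to the right of the width line, Cdk4 lies just under it at 1436 bp, and most replication and mitosis genes lie to the left.

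Among the D-type cyclins and their kinases, Ccnd2 had the widest peak of all members, 4437 bp scored at 139.0 (chromosome 6, 127148640 to 127153076), rank 142 in width among the 14665 genes. Cdk6, a kinase partner of D-type cyclins, followed with 4275 bp and a score of 129.4 (chromosome 5, 3340687 to 3344961), rank 169. Inside the Cdk6 model, further along the gene, lay a pair of further peaks, 206 bp and 788 bp wide with scores of 9.48 and 57.1. Ccnd1 had 1 peak of 3224 bp with the lower score of 92.1. Merging peaks closer than 1 kb widened the region at Ccnd1 to 6012 bp and at Ccnd2 to 7801 bp, since further peaks lie close by. Ccnd3 held 9 peaks, the most of any member. Its first start had a peak of 1364 bp (score 59.3) and its second start, inside the gene model, one of 2760 bp (score 157.1) that began 4 bp after it, so the internal start had the wider and higher-scored peak. Cdk4, the other partner kinase, had a peak of 1436 bp scored at 199.0 from 30 bp before to 1405 bp after its start, and a small one of 378 bp (score 32.9) before it.

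The listed CDK inhibitors and Rb1 had widths above the median of all genes with a peak, 1515 bp. The scores of Cdkn1a and Cdkn2a lay below the median score of those genes, 152.6. CDK inhibitor genes outside the list lay under the median width: Cdkn1c with 1300 bp, Cdkn2d with 1135 bp and Cdkn2b with 962 bp. Cdkn2c, which encodes the CDK4 and CDK6 inhibitor p18, had a peak of 3943 bp scored at 179.9 that covered both of its listed starts (chromosome 4, 109663821 to 109667763), rank 250 in width. Cdkn1b, which encodes p27, an inhibitor that holds cells out of the cycle, had 3811 bp scored at 181.1 over its start (chromosome 6, 134919416 to 134923226), rank 295. A further peak of 3099 bp (score 176.5) began 5980 bp after the Cdkn1b start, just past the end of its model, with no other protein-coding gene end within 1 kb. Cdkn1a, which encodes p21, the inhibitor induced by p53, had no peak within 1 kb of either end of its model. Its peak of 2136 bp (score 121.9) covered the second listed start, 29093769 on chromosome 17.

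Cdkn2a encodes unrelated proteins from separate first exons, ARF from the outer start and the CDK4 and CDK6 inhibitor p16 from the inner one. Its single peak of 1824 bp, with a score of 148.8, covered the outer start at 89294619 on chromosome 4. The inner start at 89282192 had no called peak within 1 kb, and its window had 60.3% G+C and a CpG observed over expected of 0.442. Rb1 had a peak of 2198 bp scored at 174.0 at the upper end of its model, and its wider peak, 2311 bp scored at 86.3, lay inside the model at an end of Lpar6, a receptor gene inside Rb1. Without the Lpar6 peak, the width at Rb1 is therefore 2198 bp.

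The S phase entry genes were divided. Ccne2, a cyclin E gene, had 1 peak of 2645 bp scored at 116.0. Ccne1, the other cyclin E gene, had a peak of 915 bp (score 82.3) over its start and a narrower but higher-scored one of 742 bp (167.0) before it. Cdk2, the kinase partner of cyclin E, had 1042 bp scored at 136.2. A further peak at Cdk2, of 452 bp, lay at ends of Pmel and Rab5b. Cdc25a, the phosphatase that activates CDK2, had 1 peak of 1840 bp scored at 110.7. Merged, the region at Ccne1 was 1846 bp and that at Cdk2 was 1804 bp, over 1.5 times their widest single peaks, and a window of 2500 bp took in a peak with a score of 224.8 near Cdk2. Without bases to each side of the model the highest score at Ccne1 was 82.3.

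Among the transcription factors, the widest peaks lay at E2f3 (2617 bp, score 118.6), an activating E2F, and Foxm1 (1935 bp, score 194.3), which drives mitotic genes. The Foxm1 peak also lies at an end of Rhno1 and cannot be given to one of them. E2f3 has an outer and an inner listed start. The outer start fell in a gap of 286 bp between peaks, and the inner one lay under the peak of 2617 bp. E2f8 (1846 bp, 128.6) and E2f7 (1202 bp, 98.6), the atypical E2F repressors, each had 1 peak over the start. E2f2 had its highest score before the first start (88.9, 498 bp), a peak of 1126 bp after it and its widest peak, 1527 bp scored at 58.1, at its second start. E2f1 had a peak of 837 bp scored at 101.3 over its start and 3 further peaks, 1 of them at an end of Necab3; merged, its region was 2299 bp. Mybl2, the B-Myb gene that works with FOXM1, had the lowest score of all members, 29.0, on a peak of 743 bp, and it was the only member with no peak left in the 50% of the list with the higher scores (at least 35.7).

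**Figure D3:**
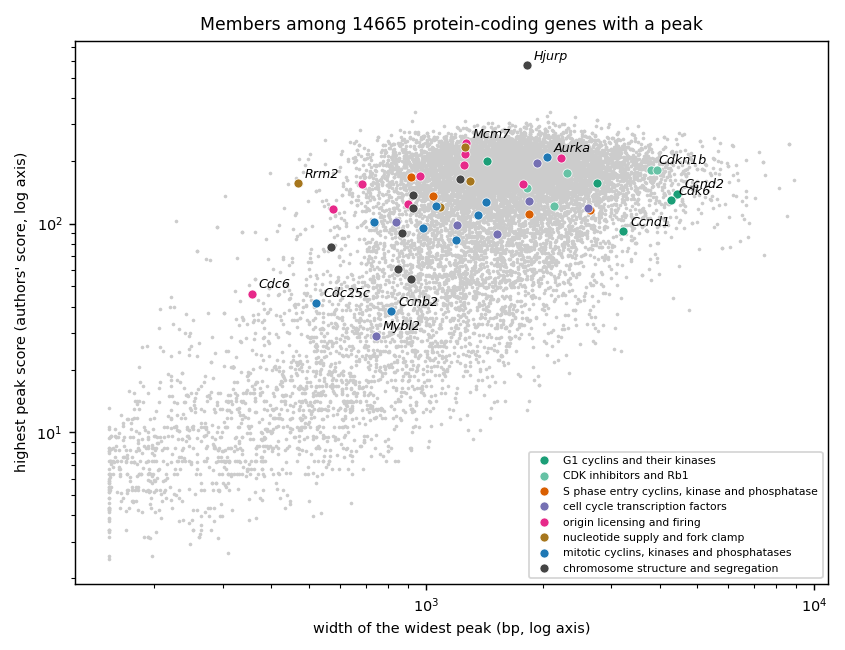
Every protein-coding gene with a peak is a grey point by the width of its widest peak (x axis, bp, log axis) and its highest score (y axis, log axis), with members coloured by role. Hjurp stands above all genes at 572.0, Ccnd2 and Cdk6 lie far to the right, and Mybl2, Ccnb2, Cdc25c and Cdc6 have the lowest scores among the members, from 29.0 to 46.2.

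Genes of origin licensing and firing had narrow peaks. Their median width was 1110 bp and their median score 161.9, and 7 of 10 reached the top 25% of all scores (at least 140.8), which 55.6% of protein-coding genes with a peak did. The MCM helicase genes ranged from 577 bp at Mcm2 to 1268 bp at Mcm7. Mcm7 had the highest score of the role, 242.5, and its peak is shared with an end of Ap4m1. Mcm6 had 1253 bp scored at 189.8 and Mcm4 967 bp with 169.3, the latter shared with Prkdc. Mcm3 had 686 bp scored at 154.5, Mcm5 898 bp (its highest score, 124.2, stood on a peak of 590 bp before the start) and Mcm2 a score of 117.6. A window of 2500 bp reached a peak of 2250 bp near Mcm2.

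Of the factors that load the helicase, Cdt1 had 1 peak of 1784 bp (score 154.5) and Cdc6 had the smallest widest peak of any member. Its 3 peaks were 195 bp, 356 bp and 153 bp wide, with scores of 23.6, 46.2 and 4.23, and the widest ended 1 bp after the start. Together with the gaps between them the Cdc6 peaks spanned 1169 bp. Gmnn, which encodes the CDT1 inhibitor geminin, had 1262 bp scored at 215.6. Cdc45, a subunit of the active helicase, had 2227 bp scored at 205.4, a peak shared with Ufd1.

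The genes of nucleotide supply and the replication clamp were also narrow. Rrm1, the large subunit of ribonucleotide reductase, had 1 peak of 1303 bp (score 159.1). Rrm2, the small subunit, whose level follows S phase, had 3 peaks of 240 bp, 468 bp and 265 bp, with scores of 29.2, 156.1 and 10.4. The subunit genes thus had nearly the same highest score on single peaks of unlike width. With peaks closer than 1 kb merged, the regions were 1303 bp at Rrm1 and 1102 bp at Rrm2. Tyms, thymidylate synthase, had 1087 bp scored at 119.8. Pcna, the sliding clamp, had its highest score, 232.5, on a peak of 890 bp at its start, near an end of Cds2; its widest peak, 1258 bp, lay at the far end of the model, by Tmem230.

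Mitotic cyclins, kinases and phosphatases had widths around a median of 1065 bp, and their scores had a median of 102.3. Against 55.6% of genes with a peak, 1 of the 9 reached the top 25% of scores. That gene was Aurka, the spindle pole kinase, with 2046 bp and a score of 207.5 on a peak shared with Cstf1. Cdk1, the kinase of mitotic entry, had a peak of 1065 bp scored at 120.9 that began 8 bp after the start, and one of 178 bp (score 5.61) that ended 210 bp before it. Ccnb1 had 1193 bp scored at 83.7 and Ccnb2 814 bp with 38.0, each as 1 peak over the start. Ccna2, whose product works in S phase and mitosis, had 736 bp scored at 102.3 inside the model and 473 bp (34.4) at its end, near Bbs7. Plk1, the polo-like kinase, had 1360 bp (110.4), Aurkb, the kinase of the chromosomal passenger complex, 985 bp (94.8), and Cdc25b 1428 bp (127.5). Cdc25c, the phosphatase that activates CDK1, had 522 bp scored at 41.9, and 229 bp (25.9) with no bases to each side of the model.

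Chromosome structure and segregation genes had the smallest median width of the 8 roles, 919.5 bp. Of the 8 genes, 6 were under 1 kb, against 21.9% of genes with a peak. Both values are for single peaks and depend on how peaks are split. With peaks closer than 1 kb merged, Top2a had 1662 bp, Cdc20 1629 bp, Cenpa 1533 bp and Birc5 1358 bp. Bub1 (915 bp) and Bub1b (835 bp) stayed under 1 kb. Mki67, which encodes the proliferation marker Ki-67, had a peak of 1223 bp scored at 164.2 from 102 bp before to 1120 bp after its start, and one of 597 bp (80.5) further upstream. Top2a, the topoisomerase that untangles chromosomes, had 867 bp (90.5) over its start and 595 bp (35.4) before it. The spindle checkpoint genes Bub1 (915 bp, 54.4) and Bub1b (571 bp, 77.5) and their target Cdc20 (848 bp, highest score 60.8) scored lower. Birc5, which encodes survivin, had its stronger peak before the start (924 bp, 118.9) and one of 259 bp (14.6) after it. Cenpa, the centromeric histone H3 variant, had 929 bp scored at 137.2.

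Hjurp, the chaperone that loads CENP-A, had the highest score of all 14665 genes, 572.0, on 1 peak of ordinary width, 1819 bp (chromosome 1, 88276303 to 88278121). The next highest score among members was 242.5, at Mcm7. The highest score of the whole peak list, 702.6, stood on a peak over none of the protein-coding genes read here. No end of another protein-coding gene lay within 1 kb of the Hjurp peak.

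**Figure D4:**
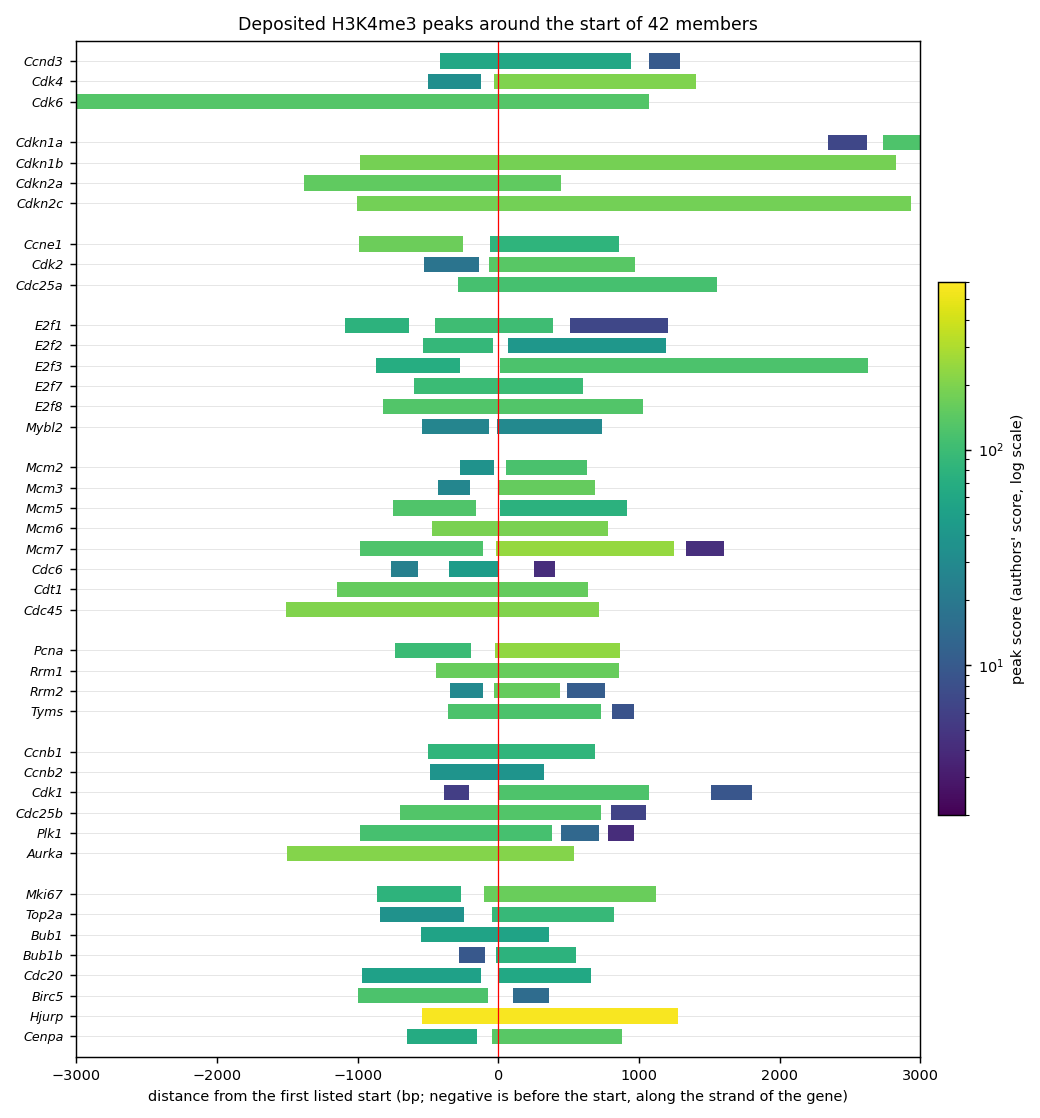
Bars are the deposited peaks over the gene model, or within 1 kb of it, for 42 members, by distance from the first listed start in bp (negative is before the start) and coloured by the authors' score on a log scale; rows are grouped by role. The peaks of Cdk6, Cdkn1b and Cdkn2c run for kilobases across the start, while at Mcm2, Mcm3, Mcm5, Cdk1, Cdc20, Birc5, E2f2 and E2f3 the start falls between peaks.

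Many members had separate peaks close together at the start. Merging peaks closer than 1 kb widened 20 of 52 members by over 1.5 times, against 21.8% of genes with a peak, among them Rrm2 to 1102 bp, Cdk1 to 2192 bp, Mki67 to 1980 bp, Top2a to 1662 bp, Mcm7 to 2586 bp and Cdc20 to 1629 bp. A gap between peaks that reached into the stretch from 300 bp before to 50 bp after the start was found in 20 of 41 members with a peak there, against a background of 21.7%. At the first listed start it was found in 1 of 6 G1 regulators (Cdk4) and in 19 of 35 other members. The second starts of Cdkn1a and Ccnd3, which carry the widest peaks of these G1 regulators, also had such a gap. By role, 6 of 8 chromosome structure and segregation genes, 5 of 8 licensing genes and 1 of 6 mitotic cyclins, kinases and phosphatases had it. In 8 members (Mcm2, Mcm3, Mcm5, Cdk1, Cdc20, Birc5, E2f2 and E2f3) the first listed start itself lay in the gap, against 6.57% of genes. There 80 to 286 bp lay between the peaks (median 173.5 bp). The second start of Ccnd3 also lay in a gap, of 56 bp. The gap near the first start depended on weak peaks. It was found in 10 of 40 members in the 50% of the list with the higher scores (background 15.7%). With peaks at least 300 bp wide it was found in 13 of 41 (16.7%). The gap stretch was set after the values were seen.

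The peaks lay more after than before the start in 29 of 41 members, against 79.6% of genes. The 12 exceptions had as much or more peak length before it: Bub1, Aurka, Cdkn2a, Cdkn2c, Cdc20, Cdk6, Plk1, Cdt1, Ccnb2, Cdc6, Birc5 and Cdc45. Median covered lengths in the 1 kb on each side were 566 bp before and 857 bp after, against 534 bp and 980 bp over all genes. In the 35 members outside the G1 switch, 94.3% of starts were under a peak at 250 bp before the start, 62.9% at 50 bp before it, and 100% at 300 bp after it. For all genes with a peak at the start the values were 78.7%, 76.5% and 93.4%. By 1000 bp after the start the share was 28.6% in these 35 members and 57.0% in all genes.

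**Figure D5:**
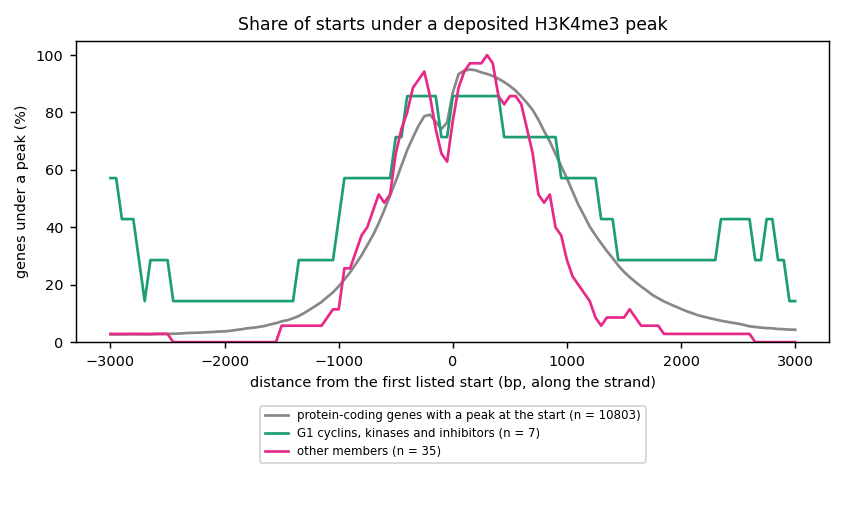
Lines give the percent of first listed starts under a peak (y axis) by distance along the strand in bp (x axis), for 10803 protein-coding genes with a peak at the start, 7 G1 regulators and 35 other members. Unlike the line of all genes, that of the 7 includes a gene with no peak at its first start, Cdkn1a. The line of the 35 falls to 62.9% at 50 bp before the start and is at 28.6% by 1000 bp after it, where all genes are at 57.0%; the line of the 7 moves in large steps because each gene is a large share of it.

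Neighbouring genes touched a few of these values. The widest peak lay within 1 kb of an end of another protein-coding gene for 7 members: Rb1, Foxm1, Mcm4, Mcm7, Cdc45, Pcna and Aurka. Median width was 1935 bp in these 7 and 1202 bp in the 45 others, and the median scores were 205.4 and 120.9. Among the 37 members with no other gene end within 2 kb of either end, all had a peak, against 57.5% of such genes, with a median width of 1202 bp against 1463 bp.

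Other genes of the same pathways, 95 in all, also carried a peak in every case, against 67.0% of protein-coding genes. Their median score was 157.0, above the 128.0 of the members. Of the 95, 59 reached the top 25% of scores (62.1%), against 21 of the 52 members and 55.6% of all genes with a peak. A peak over 2 kb was found in 9 of the 95, against 26.1% of genes with a peak. The 37 other replication genes (origin recognition, GINS, polymerase, clamp loader and nucleotide genes) had medians of 1222 bp in width and 170.1 in score. The 33 other mitosis genes (kinesin, kinetochore, condensin and spindle genes) were narrower, at 838 bp and 138.8. Of the 33, 23 were under 1 kb, against 21.9% of genes with a peak. Of 26 mitosis genes with a listed start and a peak, 20 had a gap near the start, as did 6 of 30 replication genes, against a background of 21.7%. The 25 other control genes (further inhibitors, pocket proteins, E2F and MuvB subunits, checkpoint kinases) had 1483 bp and 170.7, with 2 under 1 kb. The widest peak of these 95 was 2653 bp, which Ccnd2, Cdk6, Cdkn2c, Cdkn1b, Ccnd1 and Ccnd3 exceeded.

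Genes that mark glia, muscle and interstitial cells also carried peaks in this sort. All 10 enteric neuron markers had a peak (median score 48.1), and Nos1 itself had one of 183 bp scored at 13.0. All 8 markers of enteric glia, which can divide, had one (median score 94.1, Sox10 at 6775 bp), as did all 8 of smooth muscle (19.0) and all 8 of interstitial cells and fibroblasts (29.8). Endothelial markers had a peak in 6 of 8, epithelial ones in 5 of 8 and leukocyte ones in 4 of 8, where 67.0% of all protein-coding genes had a peak. Of the leukocyte peaks, that of Cd79a (2828 bp, score 164.5) had the same width and score as the one at Arhgef1, so it may be a shared peak. The others lay at Cd68 (score 149.8), Ptprc (7.18) and Lyz2 (6.05). Cd3e, Itgam, Adgre1, Cx3cr1, Vil1, Olfm4, Muc2, Cdh5 and Tek had none. The part of these cells in the peaks of the cell cycle genes was not tested, and a peak list does not say in how many cells a promoter was marked or whether the gene was transcribed.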

How the data were processed

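H3K4me3 ChIP-seq of sorted NOS1+ enteric neurons gave 1 peak list; the input library has no file used here. The submitters' processing notes name BWA, Picard, MACS2 and mm10, without roles or versions. The library was paired-end and MACS2 made the list, per the file headers. The deposited score of each peak is the authors' value on a scale not given in the sources used here, as are the threshold and the handling of duplicates. Depth is unknown, and peak width and splitting depend on it.

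Gene models came from RefSeq on GRCm38.p6, and starts and promoter sequences from the RefSeq promoter table of that build (17492 protein-coding genes). The first listed start was used unless stated. A gene had a peak when at least 1 bp lay over its model or within 1 kb of it. Positions are 1-based and include both end bases, as do widths. Python 3.11.15 with pandas 2.3.3 was used. On simulated peaks at 200 genes, all widths were recovered, as was whether the start lay in a gap between peaks. Gap lengths and the count of gaps near the start were not part of that check. Every member is named, with full values for the extremes, shared peaks and peaks away from the start. Members and lists were chosen with earlier results of these data known. Alternatives were score sets, windows, overlap, width minimum, merging and lone genes; CpG classes and gap counts were added after seeing the data.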

Additional observations from a re-analysis of the deposited data

How the results depend on the processing

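With 1 library, every value rests on that library and on an unknown depth. The count of 52 members with a peak stayed at 51 or 52 with other windows, overlap, a width minimum, merging and the 50% of peaks with the higher scores. In the 25% with the highest scores it was 21 of 52 (40.4%, all genes 37.3%), and 16 of 42 members had a peak at the start (all genes 35.8%). Both counts lay near the share of all genes, which include genes with no peak. Among genes with a peak, as all 52 members are, 55.6% reached the top 25%, and the 40.4% of members lay below that. The median width of the G1 regulators with a peak left stayed above that of the others in each of the 9 alternatives. These kept 6 and 15 genes in the 25% with the highest scores (without Ccnd1, Ccnd2, Cdk6 and Cdkn1a), 9 and 42 at model ends only and 7 and 30 among lone genes. The division was chosen after the widths were seen. The alternatives reread the same peaks, so this order is no independent support for it. With peaks closer than 1 kb merged the medians were 3565.5 bp and 1644.5 bp, and 20 members widened by over 1.5 times. Members with a gap near the start fell to 10 of 40 in the 50% with the higher scores and to 13 of 41 with peaks at least 300 bp wide. With peaks at the ends of the model only, Cdkn1a had none, Ccnd3 had 1364 bp and Ccna2 473 bp. With no bases to each side, Birc5 had 259 bp, and the highest scores were 58.1 at E2f2 and 76.0 at Mcm5. No paired analysis was possible because each kind of library has 1 sample and no test was made.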
